A study of Mus musculus with 9 samples.

Results

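The 36 genes described here act in the G2 phase of the cell cycle and in mitosis, from the cyclins and kinases that start cell division to the proteins that cut the daughter cells apart. They were chosen as a list of gene symbols, each matched to its mouse Ensembl identifier, and are 36 of the 54838 genes in the deposited count tables. RNA from mouse ears was measured by 3' tag RNA-Seq, a method that reads each transcript close to its 3' end, and the study asked which changes that interleukin 23 (IL-23) brings about in skin depend on MDL-1, a lectin-type receptor of myeloid cells encoded by Clec5a. The 9 libraries formed 3 groups of 3. The first was wild-type C57BL/6 mice given DNA for green fluorescent protein (GFP), the second was wild-type C57BL/6 mice given DNA for IL-23, and the third was Mdl-1-/- C57BL/6 mice given DNA for IL-23. All mice were 10 weeks old, and all received 15 µg of minicircle DNA (a DNA circle stripped of its bacterial part) through the tail vein by hydrodynamic injection, so the GFP group shares the injection and the DNA load. No Mdl-1-/- mice with GFP are among these groups, and the difference that the genotype makes without IL-23 was not analysed here. The labels do not name the promoter in the minicircle or how the Mdl-1-/- line was made. They number the libraries but do not say that each came from its own animal, so every p-value below measures the spread between libraries, which may be technical.

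A dividing cell enters mitosis when cyclin A and cyclin B activate the kinase Cdk1, and Polo-like and Aurora kinases then drive spindle assembly. Kinetochores tie each chromosome to the spindle, the spindle checkpoint holds the anaphase-promoting complex in check until all are tied, and Cdc20 then lets that complex destroy the cyclins. In skin, divisions take place mainly in the basal layer of the epidermis and in hair follicles, and a faster turnover of keratinocytes is a known feature of psoriasis-like inflammation. Many genes of this set are transcribed late in the cell cycle through the MuvB complex with B-Myb and FoxM1, which binds a promoter element called CHR, and through NF-Y, which binds the CCAAT box.

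Promoter letters are shown because these elements are what many of the genes share outside their expression. The RefSeq promoter table (build GRCm38.p6; 250 bases before to 50 bases after each annotated start, 300 in all) held 34 windows for 31 of the 36 genes. No window was matched for Ccna2, Cdc25c, Aurkb, Tpx2 and Kif20a. In 29 of the 34 windows the last 30 bases lay in a transcript of the gene in another annotation, GENCODE M21. Those of Aurka, Kif2c, Mad2l1, Kif23 and Kif11 did not, so the start in these windows is less certain. The 6 windows below are those of Plk1 and Birc5, which had the highest log2 fold changes after IL-23 among genes with a window, of Ccnb2 and Cdc20, and of Cenpf and Mki67, which did not pass the test. Plk1 lies at chr7:122159185-122159484 on the plus strand, Ccnb2 at chr9:70421505-70421804 on the minus strand and Cdc20 at chr4:118437294-118437593 on the minus strand. Birc5 lies at chr11:117848987-117849286 on the plus strand, Cenpf at chr1:189688037-189688336 on the minus strand and Mki67 at chr7:135716330-135716629 on the minus strand. Each is written 5′ to 3′ on the strand of its gene, and capitals mark the CHR letters (TTTGAA or TTCGAA) and the CCAAT box (CCAAT), each searched on both strands, so that TTCAAA and ATTGG also count.
Plk1: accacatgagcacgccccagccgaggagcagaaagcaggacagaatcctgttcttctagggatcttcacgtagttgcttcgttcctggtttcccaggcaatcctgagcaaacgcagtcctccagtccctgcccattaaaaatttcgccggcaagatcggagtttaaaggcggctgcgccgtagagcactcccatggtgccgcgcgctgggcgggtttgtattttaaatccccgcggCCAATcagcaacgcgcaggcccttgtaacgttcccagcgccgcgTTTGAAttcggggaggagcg
Ccnb2: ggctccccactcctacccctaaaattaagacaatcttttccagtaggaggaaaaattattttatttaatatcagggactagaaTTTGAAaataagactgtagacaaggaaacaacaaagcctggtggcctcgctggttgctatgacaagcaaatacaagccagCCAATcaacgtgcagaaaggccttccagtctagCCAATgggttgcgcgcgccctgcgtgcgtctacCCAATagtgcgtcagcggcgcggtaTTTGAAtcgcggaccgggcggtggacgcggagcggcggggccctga
Cdc20: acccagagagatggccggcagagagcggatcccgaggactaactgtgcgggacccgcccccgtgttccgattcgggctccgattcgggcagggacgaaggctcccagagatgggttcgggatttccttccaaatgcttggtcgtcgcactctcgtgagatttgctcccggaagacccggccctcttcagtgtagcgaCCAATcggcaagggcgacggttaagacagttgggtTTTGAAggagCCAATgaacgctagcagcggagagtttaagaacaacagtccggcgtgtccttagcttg
Birc5: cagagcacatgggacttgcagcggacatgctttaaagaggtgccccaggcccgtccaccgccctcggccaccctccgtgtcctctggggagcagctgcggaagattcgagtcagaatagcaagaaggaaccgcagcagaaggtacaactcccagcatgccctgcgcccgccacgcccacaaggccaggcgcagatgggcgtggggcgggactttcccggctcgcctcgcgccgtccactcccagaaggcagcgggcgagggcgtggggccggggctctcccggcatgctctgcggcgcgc
Cenpf: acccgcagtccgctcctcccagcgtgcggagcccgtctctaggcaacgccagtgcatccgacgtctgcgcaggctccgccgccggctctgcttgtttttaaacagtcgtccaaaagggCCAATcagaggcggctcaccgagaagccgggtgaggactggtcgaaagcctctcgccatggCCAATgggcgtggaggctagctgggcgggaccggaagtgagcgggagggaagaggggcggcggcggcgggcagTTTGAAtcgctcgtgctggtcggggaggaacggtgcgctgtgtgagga
Mki67: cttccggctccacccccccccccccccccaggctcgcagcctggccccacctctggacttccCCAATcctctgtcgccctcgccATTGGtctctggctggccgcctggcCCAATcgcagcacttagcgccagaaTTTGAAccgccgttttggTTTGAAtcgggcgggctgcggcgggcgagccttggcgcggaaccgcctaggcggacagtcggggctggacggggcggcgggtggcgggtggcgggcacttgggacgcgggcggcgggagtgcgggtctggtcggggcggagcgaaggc

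The CHR letters stood in 27 of the 34 windows (79.4%), against 19.2% of all 32851 windows in the table and 14.4% of the 12148 windows of tested genes. A match starting between 60 bases before and 40 bases after the start, a stretch chosen after the matches were seen, was present in 24 windows (70.6%) against 5.71% of all windows. CCAAT boxes stood in 27 windows (79.4%) against 37.4% of all, and 2 or more in 19 windows (55.9%) against 11.7% of all. In Plk1 a CCAAT box began 14 bases before the start and the CHR letters 30 bases after it. In Ccnb2, 3 CCAAT boxes began 87, 54 and 21 bases before the start and a CHR match 4 bases after it. Cdc20 had CCAAT boxes 53 and 8 bases before the start with the CHR letters between them, 18 bases before it. Cenpf had the CHR letters 2 bases after the start and CCAAT boxes 132 and 71 bases before it. Mki67 had its CHR matches 116 and 98 bases before the start, outside the near stretch. The Birc5 window held neither motif, which says only that these letters are not in this window. Genes that rose in wild-type mice after IL-23 had a near CHR match in 12 of 16 windows (75.0%), and those that did not pass the test in 12 of 18 (66.7%). A match is a string of letters and was not tested for binding. A CHR match and a CCAAT box can share a base, as they do in the Cdca8 window.

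**Figure D1:**
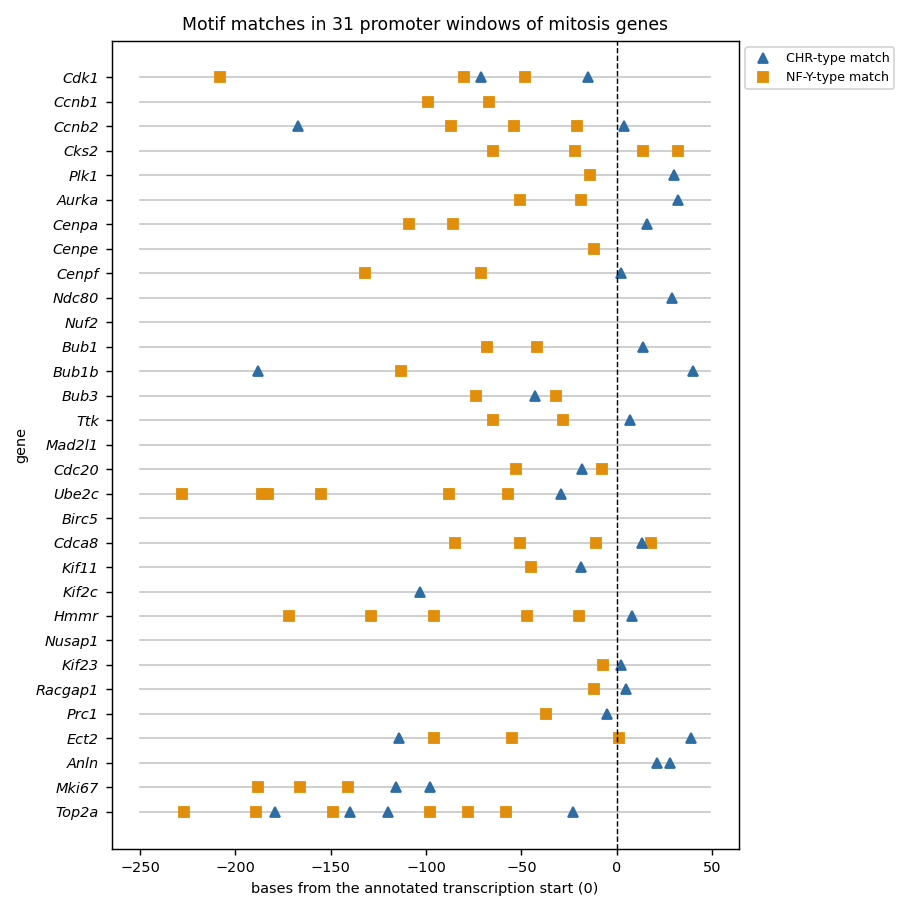
Positions of CHR matches (triangles) and CCAAT boxes, the NF-Y motif (squares), in bases from the annotated transcription start (0, dashed line), for the first RefSeq window of each of 31 mitosis genes. Most triangles sit close to the start with squares to their left, while Birc5, Nuf2, Mad2l1 and Nusap1 have no match.

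The libraries held 3776188 to 5605713 counts in genes, so that 3 counts, the limit that a count of 0 allows, corresponded to 0.464 to 0.992 CPM (counts scaled by TMM to a common library total, as in all CPM values here). This covers counting error only. Mitochondrial genes took 12.6% to 15.1% of counts in the GFP group, 8.69% to 8.99% in wild-type IL-23 ears and 11.4% to 12.9% in Mdl-1-/- IL-23 ears. Clec5a was counted 2, 7 and 10 times in the GFP libraries, 17, 21 and 11 times in wild-type IL-23 ears and 10, 13 and 5 times in the Mdl-1-/- libraries. The labels do not say which part of Clec5a is deleted, and a 3' tag outside it checks nothing about the genotype. The skin label was met by its markers: the summed level of 7 basal keratinocyte markers (Krt5, Krt14, Krt15, Col17a1, Itga6, Itgb4 and Trp63) was 9374 to 11662 CPM with GFP, 10661 to 13317 CPM in wild-type IL-23 ears and 7871 to 10496 CPM in Mdl-1-/- IL-23 ears, none of them at 0. Of the 7, Krt14 rose after IL-23, whereas the other 6 had negative log2 fold changes and Col17a1 and Krt15 fell (median of the 7, -0.27). Between genotypes Col17a1 was higher and Krt14 lower in Mdl-1-/- ears (median 0.29).

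In wild-type ears, 17 of the 35 tested mitosis genes rose after IL-23 and 0 fell (edgeR's quasi-likelihood test, Benjamini-Hochberg adjusted p under 0.05 over all 13807 tested genes). Of all tested genes, 22.9% were called higher and 21.7% lower in this comparison. The median log2 fold change of the 35 was 0.50, against -0.04 for all tested genes, and 32 of the 35 were above 0. Those that moved most were Plk1, Birc5 and Ccna2, at 2.93-fold, 2.75-fold and 2.695-fold, while Cdk1, Prc1, Ndc80 and Mki67 were at 1.04-fold, 1.03-fold, 1.06-fold and 1.19-fold. CPM values did not overlap between the groups for 21 of the 35, all 21 higher after IL-23, against 27.3% of all tested genes higher and 27.4% lower without overlap. Kif20a, a kinesin of the central spindle, was counted 8, 5 and 1 times with GFP, 2, 7 and 3 times in wild-type IL-23 and 0, 9 and 3 times in Mdl-1-/- ears and was left out of the test by its low counts. As these are whole ears, more dividing cells and more RNA of these genes per cell cannot be told apart. Without wild-type IL-23 library 1 the count of genes that rose was 11, and with upper-quartile in place of TMM scaling it was 12. That scaling moved the median of all tested genes to -0.20 and the share of calls that were higher from 51.3% to 38.9%, and the median of the 35 was then 0.35.

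In ears of IL-23-treated Mdl-1-/- mice, 9 of the 35 genes were lower than in IL-23-treated wild-type ears and 0 were higher. Of all tested genes, 10.1% were called lower and 7.58% higher. The 9 were Birc5, Plk1, Ccna2, Top2a, Racgap1, Cdc20, Kif23, Cdca8 and Ccnb2. This comparison shares its wild-type IL-23 libraries with the first, so a library with high levels enters both. The median log2 fold change of the 35 was -0.32, against 0.00 for all tested genes. CPM values did not overlap for 11 of the 35, all 11 lower in Mdl-1-/- ears, against 19.2% of all tested genes lower and 17.2% higher. The count of 9 dropped to 5 without wild-type IL-23 library 1, to 4 without wild-type IL-23 library 3, to 3 without Mdl-1-/- library 1 and to 4 without Mdl-1-/- library 3. Upper-quartile scaling gave 7 lower genes, and moved the share of all calls that were higher from 42.9% to 53.2%.

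Against wild-type GFP ears, IL-23-treated Mdl-1-/- ears had 1 of the 35 genes higher, Ect2, and 0 lower, beside 10.2% and 6.93% of all tested genes. The median log2 fold change was 0.23, against -0.02 for all tested genes, and 28 of the 35 were above 0. Without the adjustment, 5 of the 35 had a p under 0.05. Plk1, Bub3 and Ect2 lay above the GFP range in every Mdl-1-/- library and Cenpf below it, where 17.9% of all tested genes were higher without overlap and 17.9% lower. The call of Ect2 was lost in 9 of 17 alternatives, among them DESeq2 (adjusted p = 0.0535) and leaving out GFP library 1, 2 or 3 or Mdl-1-/- library 2 or 3 (adjusted p between 0.0595 and 0.147), whereas 4 genes were called without Mdl-1-/- library 1. Upper-quartile scaling moved the share of all calls that were higher from 59.4% to 43.7%.

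**Figure D2:**
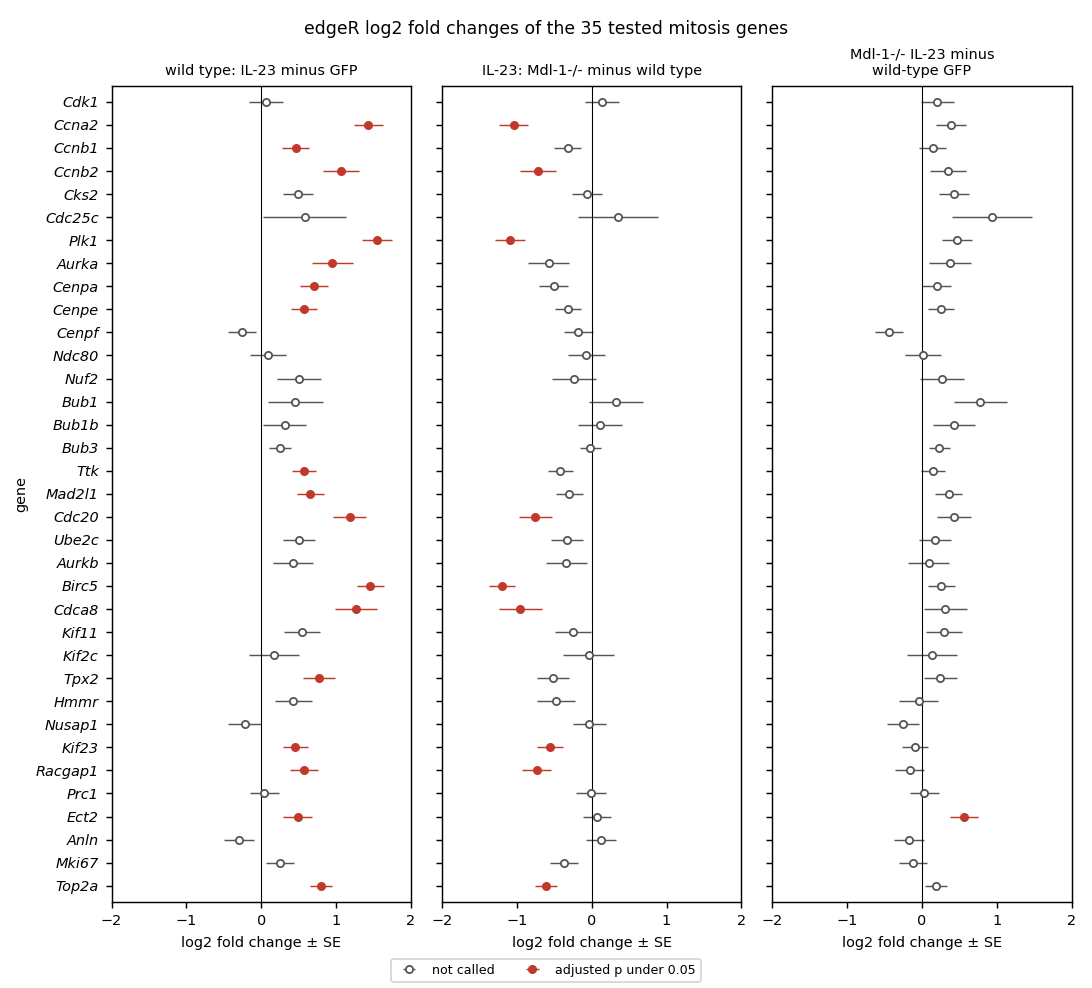
Log2 fold change ± SE from edgeR for each of the 35 tested mitosis genes (rows) in the 3 comparisons (panels), with filled points for adjusted p under 0.05. In the first panel 17 filled points lie right of 0, in the second 9 lie left of it, and in the third 1 (Ect2) is filled.

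The wild-type IL-23 and the Mdl-1-/- groups each held libraries that stood apart within their group. The summed level of the 36 genes was 1347, 1331 and 1239 CPM in the GFP libraries, 2427, 1866 and 1976 CPM in wild-type IL-23 ears and 1215, 1728 and 1401 CPM in the Mdl-1-/- libraries. Among the 35 tested genes, wild-type IL-23 library 1 was the highest of its group for 25 and the lowest for 0. Mdl-1-/- library 2 was the highest of its group for 29, and Mdl-1-/- library 1 was the lowest for 26. GFP libraries 1, 2 and 3 were the highest of their group for 16, 9 and 10 genes. Many of the mitosis genes were thus high or low in the same library of an IL-23 group. For all tested genes such counts were not made, so the pattern is not shown to be particular to the mitosis genes. The sum of Mdl-1-/- library 2 came close to that of wild-type IL-23 library 2.

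**Figure D3:**
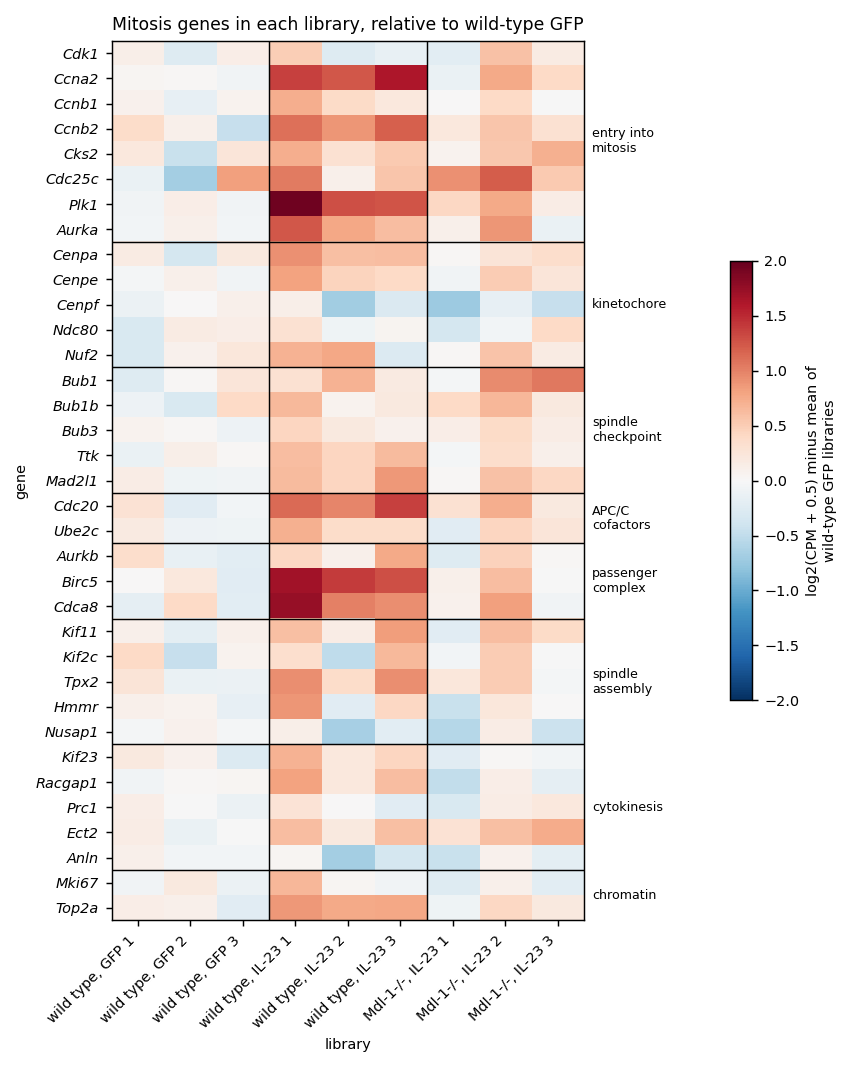
Level of each of the 35 tested mitosis genes (rows, grouped by role) in the 9 libraries (columns) as log2(CPM + 0.5) relative to the GFP mean, red for higher and blue for lower. Wild-type IL-23 library 1 and Mdl-1-/- library 2 are the reddest columns of their groups, and the rows of Ccna2, Plk1, Birc5 and Cdca8 are the reddest in wild-type IL-23.

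The counts by role that follow rest on 2 to 8 genes each and stand beside the 22.9% of all tested genes that were called higher after IL-23 and the 10.1% called lower between genotypes. Of the genes for entry into mitosis, 5 of 8 rose after IL-23 in wild-type ears and 3 of the 8 were lower in Mdl-1-/- ears. Plk1, the Polo-like kinase of mitotic entry and spindle assembly, stood at 31.2, 35.8 and 31.1 CPM with GFP, 127, 80.8 and 79.02 CPM in wild-type IL-23 ears and 43.4, 55.6 and 36.2 CPM in Mdl-1-/- IL-23 ears. The 3 groups did not overlap, and Mdl-1-/- libraries lay between the other groups. Its log2 fold change was 1.55 ± 0.20 (SE, adjusted p = 2.4e-05) after IL-23 and -1.09 ± 0.20 (SE, adjusted p = 0.00297) between the genotypes. Ccna2, cyclin A2, which activates Cdk2 and Cdk1, was at 32.2, 31.95 and 29.9 CPM with GFP, 81.4, 75.1 and 97.5 CPM in wild-type IL-23 and 28.4, 53.5 and 41.2 CPM in Mdl-1-/- ears. All wild-type IL-23 libraries were above all others, and the Mdl-1-/- range took in the GFP range. The log2 fold changes of Ccna2 were 1.43 ± 0.19 (SE, adjusted p = 3.45e-05) and -1.04 ± 0.19 (SE, adjusted p = 0.00303). Ccnb2, one of the B cyclins that activate Cdk1, measured 12.2, 10.1 and 6.65 CPM with GFP, 20.6, 17.7 and 22.2 CPM in wild-type IL-23 and 10.96, 13.95 and 11.7 CPM in Mdl-1-/- ears, again with the wild-type IL-23 libraries above the rest. Its log2 fold changes were 1.06 ± 0.24 (SE, adjusted p = 0.00185) and -0.72 ± 0.24 (SE, adjusted p = 0.0462). The call between genotypes was lost on leaving out any wild-type IL-23 or Mdl-1-/- library or GFP library 1 (adjusted p between 0.0505 and 0.143), and with upper-quartile scaling (adjusted p = 0.0628).

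The other genes of this role changed less or not by the test. Aurka, the centrosomal Aurora kinase, was at 8.35, 9.37 and 8.35 CPM with GFP, 21.3, 15.1 and 13.6 CPM in wild-type IL-23 and 9.39, 16.5 and 7.91 CPM in Mdl-1-/- ears, where library 2 reached the wild-type IL-23 range. Its log2 fold change after IL-23 was 0.95 ± 0.27 (SE, adjusted p = 0.0104), with an adjusted p of 0.0598 once wild-type IL-23 library 1 was left out, and -0.57 ± 0.27 (SE, adjusted p = 0.157) between genotypes. Without Mdl-1-/- library 2 the difference between genotypes was -0.94 (adjusted p = 0.0318). Ccnb1, the main mitotic cyclin B, was at 27.7, 23.1 and 27.4 CPM with GFP, 43.1, 34.2 and 30.1 CPM in wild-type IL-23 and 26.2, 34.3 and 25.9 CPM in Mdl-1-/- ears. The wild-type IL-23 libraries lay above the GFP libraries by a small margin, and Mdl-1-/- library 2 lay within the wild-type IL-23 range. The log2 fold change of Ccnb1 after IL-23 was 0.46 ± 0.18 (SE, adjusted p = 0.0486) and -0.32 ± 0.18 (SE, adjusted p = 0.240) between genotypes. The first call was lost in 12 of 17 alternatives, including each GFP library, wild-type IL-23 library 1 or 2, or Mdl-1-/- library 3 left out (adjusted p between 0.0560 and 0.208). Cdk1, the kinase that these cyclins activate, stood at 54.99, 42.2 and 55.8 CPM with GFP, 71.7, 42.3 and 45.6 CPM in wild-type IL-23 and 43.8, 75.9 and 56.8 CPM in Mdl-1-/- ears. Its groups overlapped throughout, and its log2 fold changes were 0.06 ± 0.23 (SE, adjusted p = 0.843) and 0.14 ± 0.23 (SE, adjusted p = 0.711). Cks2, a small Cdk1-binding subunit, had 0.50 ± 0.20 (SE, adjusted p = 0.0554) after IL-23 and passed the threshold in 5 of 17 alternatives. Cdc25c, the phosphatase that switches Cdk1 on, was at 0.551 to 3.43 CPM over the 9 libraries, with 0.58 ± 0.56 (SE, adjusted p = 0.416).

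At the centromere and kinetochore, 2 of 5 genes rose after IL-23 and none of the 5 passed the test between genotypes. Cenpa, the histone H3 variant that marks the centromere, was at 23.7, 16.3 and 24.1 CPM with GFP, 40.1, 32.2 and 32.4 CPM in wild-type IL-23 and 21.5, 25.2 and 27.1 CPM in Mdl-1-/- ears. The wild-type IL-23 libraries were above all other libraries. Its log2 fold change was 0.71 ± 0.19 (SE, adjusted p = 0.00657) after IL-23 and -0.51 ± 0.19 (SE, adjusted p = 0.0727) between genotypes. Without GFP library 2 the latter was -0.50 and passed the threshold (adjusted p = 0.0470). Cenpe, the kinetochore kinesin that brings chromosomes to the spindle equator, was at 36.02, 39.5 and 35.1 CPM with GFP, 64.4, 50.6 and 48.6 CPM in wild-type IL-23 and 35.1, 52.8 and 43.8 CPM in Mdl-1-/- ears, with Mdl-1-/- library 2 inside the wild-type IL-23 range. The log2 fold change of Cenpe after IL-23 was 0.57 ± 0.17 (SE, adjusted p = 0.0143). Its adjusted p was 0.0690 without wild-type IL-23 library 1, 0.0596 without GFP library 3 and 0.0574 with upper-quartile scaling. Cenpf, a large protein of the outer kinetochore, was at 94.5, 103 and 110 CPM with GFP, 110, 63.1 and 83.3 CPM in wild-type IL-23 and 61.5, 90.8 and 74.5 CPM in Mdl-1-/- ears. It was the gene of this role with a negative fold change, -0.26 ± 0.19 (SE, adjusted p = 0.278) after IL-23, and without wild-type IL-23 library 1, its highest library, this became -0.48 (adjusted p = 0.0484). Ndc80 and Nuf2, partners in the complex that binds microtubules, had log2 fold changes of 0.09 ± 0.24 (SE, adjusted p = 0.792) and 0.50 ± 0.29 (SE, adjusted p = 0.167). Nuf2 passed the threshold when library 3 of the wild-type IL-23 group was left out (0.76, adjusted p = 0.0371).

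The spindle checkpoint split in the same way, with 2 of 5 genes higher after IL-23. Mad2l1, the inhibitor of Cdc20, was at 30.6, 26.1 and 26.3 CPM with GFP, 43.1, 37.4 and 50.9 CPM in wild-type IL-23 and 27.96, 41.6 and 36.9 CPM in Mdl-1-/- ears. Ttk, the kinase that starts the checkpoint signal, was at 26.8, 31.95 and 30.01 CPM with GFP, 45.6, 40.1 and 45.96 CPM in wild-type IL-23 and 28.9, 37.7 and 31.9 CPM in Mdl-1-/- ears. For both, the wild-type IL-23 libraries lay above the GFP libraries, and for Ttk above the Mdl-1-/- libraries too. The log2 fold changes after IL-23 were 0.66 ± 0.18 (SE, adjusted p = 0.00786) for Mad2l1 and 0.57 ± 0.16 (SE, adjusted p = 0.00933) for Ttk, and between genotypes -0.30 ± 0.18 (SE, adjusted p = 0.265) and -0.42 ± 0.16 (SE, adjusted p = 0.0830). The checkpoint kinase Bub1, the related Bub1b (BubR1) and their partner Bub3 had log2 fold changes after IL-23 of 0.45 ± 0.37 (SE, adjusted p = 0.328), 0.31 ± 0.29 (SE, adjusted p = 0.397) and 0.25 ± 0.14 (SE, adjusted p = 0.167). Bub1 was at 2.78, 3.49 and 4.18 CPM with GFP and 3.35, 7.09 and 7.67 CPM in Mdl-1-/- ears, and its log2 fold change between these was 0.78 ± 0.35 (SE, adjusted p = 0.142). That value was 1.08 (adjusted p = 0.0398) without Mdl-1-/- library 1.

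Cdc20, the activator of the anaphase-promoting complex, stood at 12.5, 8.63 and 9.74 CPM with GFP, 22.9, 20.6 and 27.1 CPM in wild-type IL-23 and 12.7, 17.2 and 11.7 CPM in Mdl-1-/- ears. The wild-type IL-23 libraries were above all others, and the Mdl-1-/- libraries reached from inside the GFP range to above it. Its log2 fold change was 1.18 ± 0.22 (SE, adjusted p = 0.000512) after IL-23 and -0.75 ± 0.22 (SE, adjusted p = 0.0284) between genotypes. The second call needed wild-type IL-23 libraries 2 and 3 and Mdl-1-/- libraries 1 and 3, each of which ended it when left out (adjusted p between 0.0563 and 0.113). Ube2c, the ubiquitin-conjugating enzyme of that complex, ranged from 13.8 to 16.7 CPM with GFP and from 19.2 to 24.5 CPM in wild-type IL-23, with 0.51 ± 0.21 (SE, adjusted p = 0.0610). These 2 groups of Ube2c did not overlap, while the Mdl-1-/- libraries, at 12.5, 20.1 and 17.5 CPM, overlapped both. Ube2c passed the threshold after IL-23 without Mdl-1-/- library 1 (adjusted p = 0.0423).

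In the chromosomal passenger complex, which corrects faulty attachments and later guides cytokinesis, 2 of 3 genes rose after IL-23 and 2 of 3 were lower in Mdl-1-/- ears. Birc5, survivin, the subunit that brings the complex to the centromere, was at 133, 153 and 113 CPM with GFP, 423, 351 and 322 CPM in wild-type IL-23 and 142, 204 and 132 CPM in Mdl-1-/- ears. The group means were 133 ± 20.2, 365 ± 52.1 and 159 ± 38.9 CPM (SD, n = 3), the Mdl-1-/- libraries overlapped the GFP libraries, and all wild-type IL-23 libraries lay above both. Its log2 fold change was 1.46 ± 0.18 (SE, adjusted p = 1.42e-05) after IL-23 and -1.20 ± 0.18 (SE, adjusted p = 0.00109) between genotypes. Cdca8, borealin, which joins survivin in the complex, was at 32.9, 49.4 and 32.3 CPM with GFP, 126, 76.2 and 72.1 CPM in wild-type IL-23 and 39.8, 66.6 and 35.7 CPM in Mdl-1-/- ears. Library 1 was the highest of the wild-type IL-23 group by a wide margin, and library 2 the highest of the Mdl-1-/- group. The log2 fold changes of Cdca8 were 1.27 ± 0.29 (SE, adjusted p = 0.00434) and -0.95 ± 0.29 (SE, adjusted p = 0.0418). The call between genotypes was lost on leaving out any library of the wild-type IL-23 group, or without GFP library 1 or 3, or without Mdl-1-/- library 1 or 3 (adjusted p between 0.0594 and 0.146). A fit of only the 2 groups compared also lost it (adjusted p = 0.0586). Aurkb, the kinase of the complex, was at 11.8, 8.26 and 7.89 CPM with GFP, 12.4, 9.85 and 15.9 CPM in wild-type IL-23 and 7.604, 12.8 and 9.34 CPM in Mdl-1-/- ears, with overlapping groups and 0.43 ± 0.27 (SE, adjusted p = 0.205).

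**Figure D4:**
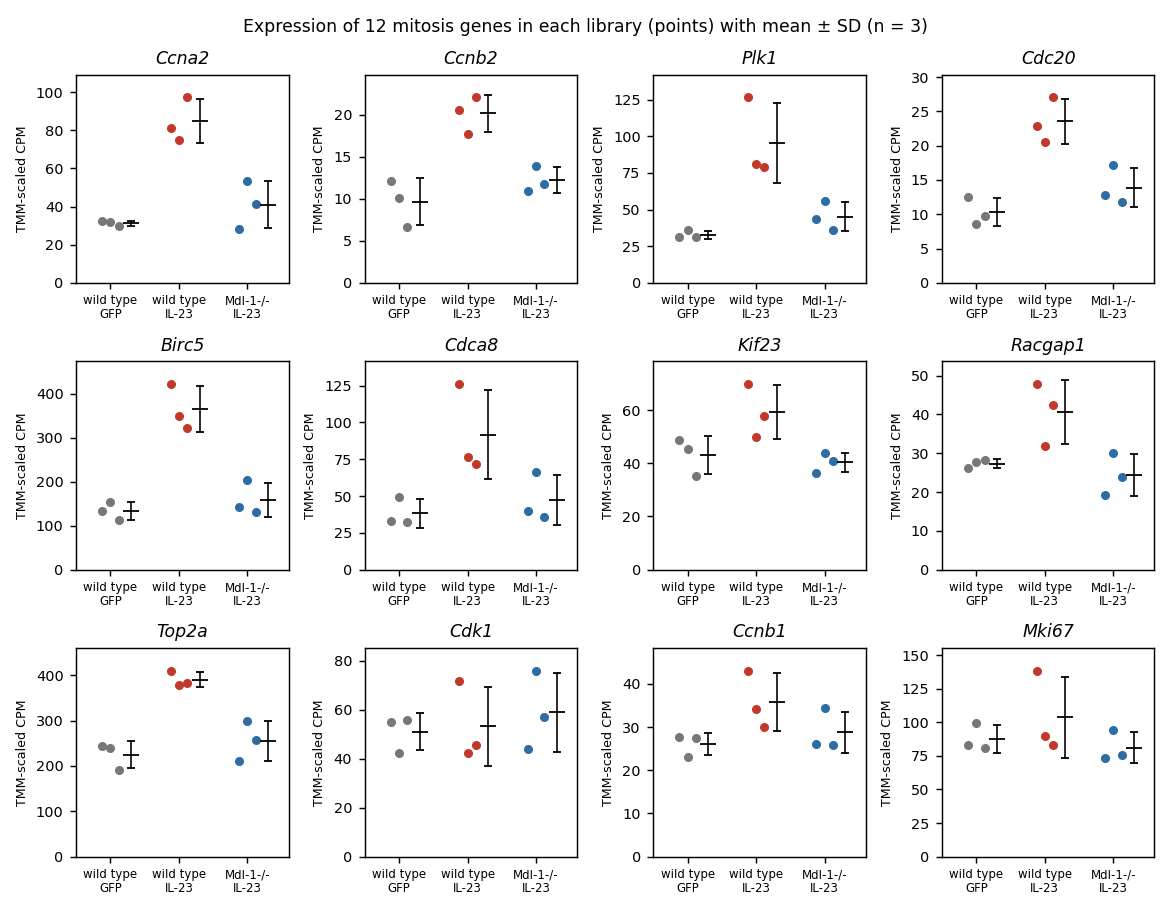
TMM-scaled CPM of 12 mitosis genes in each library (points) with mean ± SD (n = 3) for wild-type GFP, wild-type IL-23 and Mdl-1-/- IL-23. Birc5, Plk1, Ccna2 and Top2a show the wild-type IL-23 points above all others, and Cdk1 and Mki67 show points of the 3 groups at the same height.

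Among spindle assembly genes, 1 of 5 rose after IL-23, close to the 22.9% of all tested genes. Tpx2, which activates Aurora A on spindle microtubules, was at 20.4, 15.4 and 15.6 CPM with GFP, 33.00, 22.1 and 32.7 CPM in wild-type IL-23 and 19.9, 24.5 and 16.5 CPM in Mdl-1-/- ears. Library 2 of the wild-type IL-23 group fell within the Mdl-1-/- range, and all 3 lay above the GFP libraries. Its log2 fold change was 0.77 ± 0.21 (SE, adjusted p = 0.00812) after IL-23 and -0.52 ± 0.21 (SE, adjusted p = 0.0998) between genotypes. Kif11, the kinesin that pushes the spindle poles apart, had 0.55 ± 0.24 (SE, adjusted p = 0.0725), and passed the threshold at 0.73 (adjusted p = 0.0382) without wild-type IL-23 library 2 and at 0.55 (adjusted p = 0.0428) without Mdl-1-/- library 1. Hmmr, a spindle pole protein, had 0.43 ± 0.25 (SE, adjusted p = 0.176), and 0.69 (adjusted p = 0.0358) without wild-type IL-23 library 2. Kif2c, a microtubule-depolymerizing kinesin, had 0.18 ± 0.33 (SE, adjusted p = 0.695). Nusap1, which bundles spindle microtubules, was at 33.8, 36.7 and 33.9 CPM with GFP and 37.8, 21.7 and 30.1 CPM in wild-type IL-23, a log2 fold change of -0.22 ± 0.22 (SE, adjusted p = 0.424).

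Of 5 tested genes for the central spindle and cytokinesis, 3 rose after IL-23 and 2 were lower in Mdl-1-/- ears. Kif23 and Racgap1 form the centralspindlin complex of the spindle midzone. Kif23 was at 48.9, 45.4 and 35.3 CPM with GFP, 69.9, 49.7 and 57.9 CPM in wild-type IL-23 and 36.5, 43.7 and 40.97 CPM in Mdl-1-/- ears. Racgap1 was at 26.1, 27.7 and 28.2 CPM with GFP, 47.9, 31.7 and 42.3 CPM in wild-type IL-23 and 19.2, 29.96 and 23.96 CPM in Mdl-1-/- ears. For both, every wild-type IL-23 library was above every other library, but by a narrow gap at library 2. The log2 fold changes of Kif23 were 0.46 ± 0.17 (SE, adjusted p = 0.0392) and -0.55 ± 0.17 (SE, adjusted p = 0.0379), and those of Racgap1 0.57 ± 0.19 (SE, adjusted p = 0.0235) and -0.73 ± 0.20 (SE, adjusted p = 0.0183). Kif23 lost its call after IL-23 without GFP library 3 or wild-type IL-23 library 1 or 3 (adjusted p between 0.0593 and 0.189), and its call between genotypes without wild-type IL-23 library 1 or 3 or any Mdl-1-/- library (between 0.0553 and 0.133). Racgap1 lost the first without GFP library 1 or 3 or wild-type IL-23 library 1 or 3 (between 0.0559 and 0.105), and the second without wild-type IL-23 library 1 or 3 or Mdl-1-/- library 1 or 3 (between 0.0566 and 0.0884). Upper-quartile scaling ended both calls of Kif23 (0.156 and 0.0561) and the first of Racgap1 (0.0788). Kif23 also lost its first call with a minimum count of 30 (0.0620) and with only the 2 groups compared (0.0532).

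Ect2, the exchange factor that centralspindlin recruits to activate RhoA, had another pattern than Kif23 and Racgap1. It was at 21.1, 17.3 and 19.03 CPM with GFP, 29.6, 21.9 and 29.1 CPM in wild-type IL-23 and 23.5, 29.05 and 32.1 CPM in Mdl-1-/- ears. Both IL-23 groups lay above the GFP group and overlapped each other. The log2 fold change was 0.48 ± 0.19 (SE, adjusted p = 0.0458) in wild-type ears, 0.56 ± 0.19 (SE, adjusted p = 0.0487) for Mdl-1-/- ears against the same GFP libraries and 0.08 ± 0.19 (SE, adjusted p = 0.820) between the genotypes. The wild-type call was lost in 12 of 17 alternatives, including any GFP library, wild-type IL-23 library 1 or 3 or Mdl-1-/- library 2 left out (adjusted p between 0.0530 and 0.133). Cks2 and Bub3 also had positive log2 fold changes against GFP, at 0.50 and 0.25 in wild-type ears and 0.43 and 0.23 in Mdl-1-/- ears. Between genotypes theirs were -0.06 and -0.02, and none of these values was called. Prc1, the microtubule bundler of the midzone, had 0.04 ± 0.20 (SE, adjusted p = 0.881) after IL-23. Anln, anillin, the scaffold of the contractile ring, was at 34.5, 31.03 and 31.1 CPM with GFP, 33.2, 19.9 and 25.1 CPM in wild-type IL-23 and 23.5, 34.1 and 28.03 CPM in Mdl-1-/- ears, with -0.30 ± 0.20 (SE, adjusted p = 0.227).

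Top2a and Mki67 are widely used to mark proliferation, and both had a positive log2 fold change after IL-23 and a negative one between genotypes, of which those of Top2a passed the test. Top2a, the topoisomerase that untangles sister chromatids, was at 245, 239 and 191 CPM with GFP, 411, 378 and 384 CPM in wild-type IL-23 and 211, 299 and 258 CPM in Mdl-1-/- ears. Its wild-type IL-23 libraries lay close together and above all others, with log2 fold changes of 0.80 ± 0.15 (SE, adjusted p = 0.000517) after IL-23 and -0.61 ± 0.15 (SE, adjusted p = 0.0119) between genotypes, the latter -0.49 (adjusted p = 0.0667) without Mdl-1-/- library 1. Mki67, the Ki-67 antigen that coats mitotic chromosomes, was at 83.01, 99.7 and 80.6 CPM with GFP, 139, 90.2 and 82.99 CPM in wild-type IL-23 and 73.1, 94.2 and 75.5 CPM in Mdl-1-/- ears. Only library 1 of the wild-type IL-23 group lay above the GFP range, and the log2 fold changes were 0.25 ± 0.18 (SE, adjusted p = 0.288) and -0.36 ± 0.19 (SE, adjusted p = 0.184).

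Because wild-type IL-23 library 1 and Mdl-1-/- library 2 were high for most of these genes, each gene's count was also divided by the Mki67 count of the same library, a ratio that library scaling cannot move. Mki67 was picked as the reference after its values were seen. Wild-type IL-23 library 1 also held the highest Mki67 value of its group, so the division lowers that library most. In wild-type IL-23 libraries 1, 2 and 3 the Ccna2 ratio was 0.587, 0.833 and 1.18. The Top2a ratio was 2.96, 4.19 and 4.63 there, so library 1 became the lowest for both genes. For others, such as Cdca8, library 1 stayed the highest. The Plk1 ratio was 0.375, 0.359 and 0.386 with GFP, 0.916, 0.896 and 0.952 in wild-type IL-23 and 0.593, 0.590 and 0.479 in Mdl-1-/- ears. In this ratio library 1 no longer stood above its group, and the 3 groups did not overlap. The Birc5 ratio was 1.61, 1.54 and 1.399, 3.05, 3.89 and 3.88 and 1.94, 2.16 and 1.74 in the same order, and the Cdca8 ratio 0.396, 0.495 and 0.401, 0.911, 0.845 and 0.869 and 0.544, 0.706 and 0.473. Cenpf went the other way, at 1.14, 1.03 and 1.36 with GFP, 0.797, 0.699 and 1.004 in wild-type IL-23 and 0.841, 0.964 and 0.987 in Mdl-1-/- ears, and so did Anln, at 0.415, 0.311 and 0.386, 0.240, 0.221 and 0.303 and 0.321, 0.362 and 0.371. After IL-23 in wild-type ears, 9 of 34 ratios lay above the GFP range without overlap (Ccna2, Ccnb2, Plk1, Aurka, Cenpe, Cdc20, Birc5, Cdca8 and Top2a) and 3 below it (Cenpf, Nusap1 and Anln), beside 11.7% and 28.5% of the 13806 tested genes other than Mki67. Between genotypes, 5 ratios were lower in Mdl-1-/- ears without overlap (Ccna2, Plk1, Birc5, Cdca8 and Racgap1) and 5 higher (Cdk1, Cdc25c, Bub1b, Bub3 and Anln), beside 2.54% and 23.7%. Against GFP, 12 ratios were higher in Mdl-1-/- ears without overlap and 1 was lower (Cenpf), beside 21.9% and 8.61%. An exact permutation test of 3 libraries against 3 cannot give a two-sided p below 0.1, so these ratios are given without a call. With a reference chosen for its small change after IL-23, genes called higher tend to rise in the ratio, so the ratios are no separate support for those calls. Between genotypes Mki67 itself had a log2 fold change of -0.36, and a lower reference raises every ratio. The genes with higher ratios there, Cdk1, Cdc25c, Bub1b, Bub3 and Anln, had log2 fold changes of 0.14, 0.35, 0.11, -0.02 and 0.13, none of them called.

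**Figure D5:**
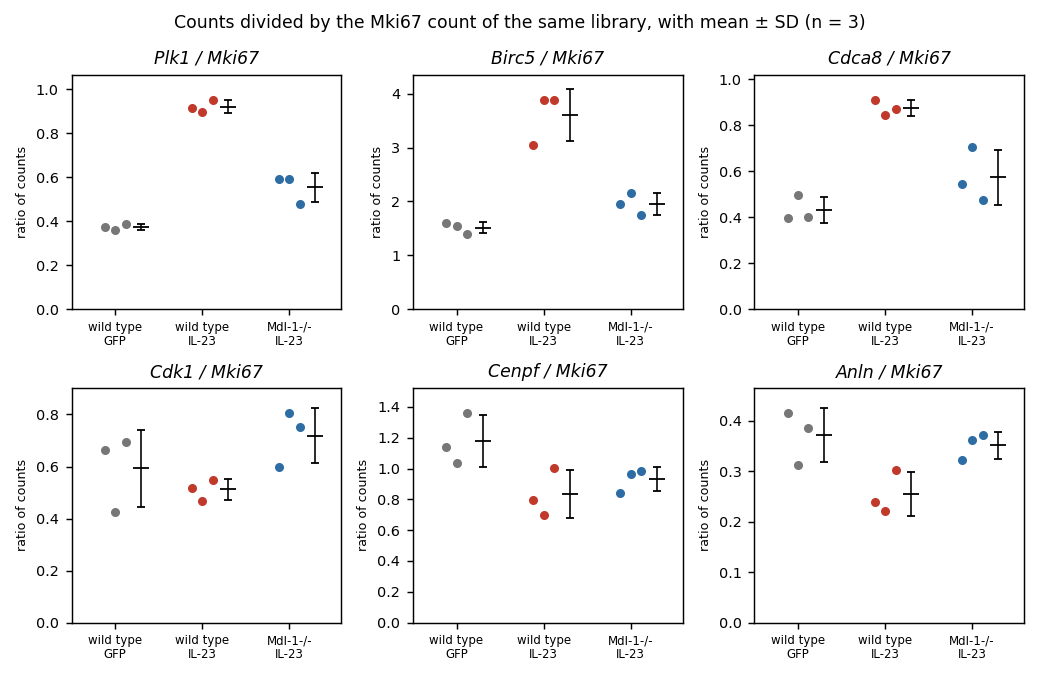
Count of 6 mitosis genes divided by the Mki67 count of the same library (points, with mean ± SD, n = 3) in wild-type GFP, wild-type IL-23 and Mdl-1-/- IL-23. The wild-type IL-23 points of Plk1, Birc5 and Cdca8 lie above both other groups, and those of Cenpf and Anln below the GFP points.

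Other genes of the cell cycle were taken from 8 lists with 144 tested genes of 150. In wild-type ears 45 of the 144 were higher after IL-23 and 21 lower, beside 22.9% and 21.7% of all tested genes, with a median log2 fold change of 0.16. In Mdl-1-/- ears against wild type under IL-23, 24 were lower and 11 higher, beside 10.1% and 7.58%, with a median of -0.17. Against GFP, Mdl-1-/- ears had 7 higher and 4 lower, beside 10.2% and 6.93% (median 0.03). Of 22 genes for mitotic transcription factors and the DREAM and MuvB complexes, 4 rose and 3 fell after IL-23, both under the shares of all tested genes, or 3 and 5 with upper-quartile scaling. Between genotypes 1 of the 22 was lower in Mdl-1-/- ears and 3 were higher. Foxm1, the forkhead factor that acts on many of the genes above, was at 10.1, 12.5 and 9.44 CPM with GFP, 28.2, 14.4 and 12.6 CPM in wild-type IL-23 and 8.95, 11.7 and 9.34 CPM in Mdl-1-/- ears, with log2 fold changes of 0.80 ± 0.28 (SE, adjusted p = 0.0269) and -0.89 ± 0.29 (SE, adjusted p = 0.0407). Library 1 of the wild-type IL-23 group held the highest Foxm1 value by far. Mybl2, B-Myb, was at 3.65, 3.67 and 2.01 CPM, 8.71, 6.57 and 4.96 CPM and 2.24, 5.95 and 3.83 CPM in the same order, with 1.14 ± 0.38 (SE, adjusted p = 0.0242) and -0.77 ± 0.39 (SE, adjusted p = 0.177). Of the E2F dimer partners, Tfdp1 had 1.11 ± 0.16 (SE, adjusted p = 7.16e-05) and Tfdp2 -1.11 ± 0.15 (SE, adjusted p = 4.29e-05).

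The remaining lists stand beside the same shares, 22.9% higher and 21.7% lower after IL-23 and 10.1% lower and 7.58% higher between genotypes. Of 24 further kinetochore and checkpoint genes, 12 rose and 2 fell after IL-23, and 5 were lower and 0 higher in Mdl-1-/- ears, among them Ska1, a microtubule coupler (1.22 ± 0.23 (SE, adjusted p = 0.000450) after IL-23 and -1.27 ± 0.23 (SE, adjusted p = 0.00295) between genotypes), and Incenp, the scaffold of the passenger complex (1.21 ± 0.22 (SE, adjusted p = 0.000537) and -1.12 ± 0.23 (SE, adjusted p = 0.00512)). Of 19 genes for the anaphase-promoting complex and separase, 6 rose and 2 fell, and 6 were lower and 1 higher between genotypes. Pttg1, securin, the inhibitor of separase, was at 34.98, 35.8 and 31.9 CPM with GFP, 60.3, 79.5 and 71.4 CPM in wild-type IL-23 and 38.02, 56.04 and 38.6 CPM in Mdl-1-/- ears, with 1.04 ± 0.17 (SE, adjusted p = 0.000206) and -0.67 ± 0.17 (SE, adjusted p = 0.0163). Its wild-type IL-23 libraries lay above all others. Of 20 further kinesin and spindle genes 8 rose and 2 fell, led by Tacc3, a spindle microtubule stabilizer (1.13 ± 0.18 (SE, adjusted p = 0.000117)), and 5 were lower and 1 higher between genotypes. Of 16 further kinases and phosphatases, 5 rose and 3 fell, and 3 were lower and 0 higher between genotypes. Ppp2r2a, a regulatory subunit of the phosphatase PP2A, had 0.85 ± 0.14 (SE, adjusted p = 0.000162) after IL-23 and Cks1b, a Cdk-binding subunit, 0.93 ± 0.16 (SE, adjusted p = 0.000207). Bora, the cofactor through which Aurora A activates Plk1, had 0.99 ± 0.19 (SE, adjusted p = 0.000546) and -0.79 ± 0.19 (SE, adjusted p = 0.0105). Of 18 condensin and cohesin genes 4 were higher and 4 lower after IL-23, near the shares of all tested genes, or 2 and 8 with upper-quartile scaling. Among them were Rad21, the cohesin subunit that separase cuts (0.65 ± 0.13 (SE, adjusted p = 0.00104)), Stag1, another cohesin subunit (-0.79 ± 0.14 (SE, adjusted p = 0.000407)), and Pds5b, a cohesin regulator (-0.87 ± 0.17 (SE, adjusted p = 0.000762)). Of 18 G1 and S phase genes 5 rose and 2 fell, or 5 and 4 with that scaling, again close to or under the shares of all tested genes. Mcm5, a subunit of the replication helicase, had 1.78 ± 0.19 (SE, adjusted p = 4.83e-06) and Rrm2, a subunit of ribonucleotide reductase, 1.58 ± 0.20 (SE, adjusted p = 1.91e-05). Of 7 CDK inhibitors 1 rose and 3 fell, among them Cdkn1b, p27 (-0.72 ± 0.15 (SE, adjusted p = 0.00117)). Between genotypes, the condensin and cohesin list had 1 gene lower and 2 higher in Mdl-1-/- ears. The G1 and S phase list had 3 lower and 2 higher, and the CDK inhibitors had 0 lower and 2 higher.

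Markers of other cells moved with the treatment. The summed level of 5 neutrophil markers (S100a8, S100a9, Csf3r, Cxcr2 and Retnlg) was 206 to 344 CPM with GFP, 34888 to 74207 CPM in wild-type IL-23 and 6651 to 25935 CPM in Mdl-1-/- ears, and that of 4 stress keratins (Krt6a, Krt6b, Krt16 and Krt17) was 168 to 312, 11226 to 21704 and 1748 to 5114 CPM. All 5 neutrophil markers and all 4 stress keratins were called higher after IL-23. Between genotypes, all 4 stress keratins and 2 of the 5 neutrophil markers, Csf3r and Retnlg, were lower in Mdl-1-/- ears. S100a8 and S100a9 are also expressed by inflamed keratinocytes. Pan-leukocyte markers (5) summed to 48.0 to 58.9 CPM with GFP, 84.3 to 142 CPM in wild-type IL-23 and 88.4 to 96.4 CPM in Mdl-1-/- ears, with 3 of 5 higher after IL-23. Of these 5, Lcp1 was lower in Mdl-1-/- than in wild-type IL-23 ears. Suprabasal keratinocyte markers (6) summed to 2634 to 5302, 8134 to 10147 and 16634 to 20627 CPM, with Krt1, Ivl, Krt10 and Flg higher and Sbsn lower after IL-23. Between genotypes Sbsn and Krt10 were higher in Mdl-1-/- ears. In the same order of groups, cartilage markers (5, with Matn3 at 0 in wild-type IL-23 ears and Comp and Matn3 at 0 in Mdl-1-/- ears) summed to 24.8 to 46.9, 2.98 to 8.32 and 7.78 to 15.6 CPM. Adipocyte markers (4) summed to 162 to 376, 34.1 to 65.2 and 39.8 to 71.3 CPM, and dermal fibroblast markers (6) to 716 to 1138, 393 to 867 and 228 to 774 CPM. After IL-23 both tested cartilage markers and all 4 adipocyte markers fell, as did Dcn and Pdgfra of the 6 fibroblast markers. Hair follicle markers (12, with Krt31, Krt34 and Krt86 at 0 in wild-type IL-23 ears and Krt83 at 0 in both other groups) summed to 24.6 to 27.1, 20.1 to 39.0 and 17.3 to 67.3 CPM. The sums overlapped, but of the 4 tested hair follicle markers Msx2, Hoxc13 and Lef1 fell after IL-23 (median log2 fold change of the 4, -1.70), and Hoxc13 and Msx2 were higher in Mdl-1-/- than in wild-type IL-23 ears. T cell markers (5) summed to 5.72 to 6.61, 5.04 to 15.2 and 4.92 to 9.34 CPM, and myeloid markers (5) to 22.3 to 63.7, 32.1 to 57.2 and 45.7 to 56.5 CPM. Their sums overlapped too, while Trac of 3 tested T cell markers and Itgam and Csf1r of 4 tested myeloid markers rose after IL-23. Of 3 tested endothelial markers, Cdh5 fell after IL-23 and 0 were called between genotypes. Of 4 skeletal muscle markers, Myh2 fell after IL-23 and was higher in Mdl-1-/- than in wild-type IL-23 ears. The part of these cells, or of the lower mitochondrial share in wild-type IL-23 ears, in the mitosis gene values was not tested.

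Some of the genes share letters or exons with others, and no source used here says whether the authors counted by strand. Cdc20 shares exons with Elovl1 on the opposite strand, a fatty acid elongase with 4614 counts over the 9 libraries that itself rose after IL-23 (log2 fold change 2.04, adjusted p = 1.58e-05), so Cdc20 values are uncertain to that extent. Ccna2 shares exons with Exosc9 (95 counts, log2 fold change -0.78, adjusted p = 0.245) and Cdca8 with 9930104L06Rik (206 counts, 0.21, adjusted p = 0.660). Cdc25c, Nusap1, Kif20a and Prc1 likewise share exons with Gm3550, Oip5, Cdc23 and Rccd1. Near-identical 3′ ends exist for Ccnb1 (Ccnb1-ps with 19 counts, Gm12856 with 17, Gm8416 with 1 and Gm4870 with 0), for Cks2 (Gm15452 with 34, Gm19945 with 28 and Gm12891 with 10) and for Plk1 (Plk-ps1 with 9), which could take reads from these genes.

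In the authors' deposited table of wild-type IL-23 against GFP, 13 of the 36 genes had a false discovery rate under 0.05, all 13 higher after IL-23, beside 9.69% of all genes in that table. All 13 were also called here, and the 4 further calls here were Ccnb1, Kif23, Racgap1 and Ect2. In the authors' deposited table of the genotypes under IL-23, Ccna2, Plk1, Birc5 and Cdca8 were under that rate, lower in Mdl-1-/- ears, beside 3.03% of all genes. The authors' deposited table of Mdl-1-/- IL-23 against GFP had 0 of the 36, beside 3.39%. These shares count calls in either direction over all 54838 genes. Of those genes, 13807 passed the count filter here, against 35 of the 36, so the shares are no like yardstick for this set.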

How the data were processed

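RNA from the ears of mice in 3 groups of 3 libraries was measured by 3' tag RNA-Seq. The authors' deposited tables hold raw counts per Ensembl gene. Per the submitters' processing notes, STAR 2.7.0a, featureCounts and edgeR were used and the build was named GRCh38.p6. That name belongs to the human genome whereas the identifiers are mouse genes, so the build is uncertain. No source used here gives the annotation or the settings for strand and multiple matches. The stated average read number per sample lies below the totals in the tables. Tables sharing a library differed in 0 values and were joined. The authors' deposited edgeR tables give log2 fold changes and p-values with false discovery rates, used as a side-by-side count only. The sign of their genotype table was read by comparing it with the fit here, and as deposited 3.19% of tested genes had the same sign. It was therefore taken as wild type minus Mdl-1-/- and turned round.

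Symbols came from the reference names (GENCODE M21), and 115 genes had no symbol. Genes were filtered with filterByExpr (minimum count 10), which kept 13807 genes and 35 of the 36 mitosis genes. Counts were scaled by TMM and tested with edgeR 4.0.16 (R 4.3.3; robust quasi-likelihood F-test, 1 model with a mean for each group and 6 residual degrees of freedom), with Benjamini-Hochberg adjustment over all tested genes and calls at an adjusted p under 0.05. The SE is the size of the log2 fold change divided by the square root of F. The procedure was tested on simulated data. CPM values are TMM-scaled. Alternatives were upper-quartile scaling, no filter, a minimum count of 30, DESeq2 1.42.0, limma 3.58.1 voom, non-robust dispersions, only the groups compared, the replicate number as a block, and each library left out. When a library is left out, the fit pools the spread of all groups.

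The mitosis genes, the other gene lists and the markers were chosen with earlier results of these data known. All 36 genes are accounted for, with values per library for genes called in wild-type IL-23 against GFP or between genotypes and for Mki67, Top2a, Cdk1 and Ccnb1, and further library values where a sentence turns on them. In each other cell cycle list, 1 to 3 of the called genes are named, taken in order of p within a comparison from the smallest, with Foxm1, Mybl2 and Pttg1 in addition. Exon overlaps and near-identical ends (at least 50 shared stretches of 50 bases in the last 500 bases of a transcript) were read from GENCODE M21.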

Additional observations from a re-analysis of the deposited data

How the results depend on the processing

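Over 17 alternatives to each fit no called gene of the set reversed its direction. After IL-23 in wild-type ears, the calls of Ccna2, Ccnb2, Plk1, Cenpa, Ttk, Mad2l1, Cdc20, Birc5, Cdca8, Tpx2 and Top2a stood in all 17, and between genotypes those of Ccna2, Plk1 and Birc5. With a library left out, the number of mitosis genes that rose after IL-23 ranged from 11 to 20 and the number that fell from 0 to 1 (Cenpf, without wild-type IL-23 library 1), the number lower in Mdl-1-/- than in wild-type IL-23 ears ranged from 3 to 10, and the number higher in Mdl-1-/- IL-23 than in GFP ears from 0 to 4. The last was 0 with upper-quartile scaling, 0 without a count filter, 0 with a minimum count of 30 and 0 with DESeq2. Of all tested genes, 1128 to 2802 were called between genotypes with a library left out (2439 with all) and 1340 to 2580 for Mdl-1-/- IL-23 against GFP (2359 with all). The cause of these differences was not tested. Counts over the other cell cycle lists were compared only with upper-quartile scaling, without a count filter and with a minimum count of 30. Of 144 such counts by list, direction and comparison, 23 moved by more than 1.5 times or to or from 0. Values that did not pass the test changed sign in 72 cases, with a size of at most 0.22 on the log2 scale there. Correlations between libraries with the same number ran from -0.0863 to 0.230. Libraries with different numbers were not correlated for comparison, so whether the numbers pair the libraries was not settled. With the replicate number as a block, 17 mitosis genes rose after IL-23 and 9 were lower between genotypes, and 6257, 2800 and 2682 of all genes were called in the 3 comparisons. Low counts limit the precision for Cdc25c, Bub1 and Kif20a.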
